A study of Arabidopsis thaliana with 9 samples.

Results

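The non-phosphorylating bypasses of the plant mitochondrial electron transport chain were followed as a list of 10 nuclear genes, chosen by name: the alternative oxidases AOX1A, AOX1C, AOX1D and AOX2, and the alternative NAD(P)H dehydrogenases NDA1, NDA2, NDB1, NDB2, NDB4 and NDC1. Of these, 9 of 10 had a row among the 22254 genes of the count table, and all 9 passed the filter on low counts that left 20294 genes for testing. AOX2 had no row and was not analysed here. The list was chosen with earlier results of these data known.

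RNA was measured by sequencing in 9 libraries from whole seedlings of Arabidopsis thaliana, all in the Columbia-0 background, 3 per genotype: the wild type (wt) and the lines clpp2-1 and clpp2-2. Both mutants are labelled knock-outs of CLPP2 (AT5G23140), which encodes the peptidase of a Clp complex in the mitochondrial matrix. The question of the series is how complexes with subunits from both the nuclear and the mitochondrial genome are put together without it. All seedlings grew for 2 weeks in shaken liquid medium with 16 h of light at 150 µmol m-2 s-1 and 22 °C, then 8 h of dark at 18 °C. No label says that the replicates were separate cultures, so the p-values rest on the spread between these 9 libraries alone, and that spread may be technical.

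Plant mitochondria can move electrons from NADH to oxygen without pumping protons. The alternative NAD(P)H dehydrogenases pass electrons to ubiquinone beside complex I, the NDA proteins from the matrix side of the inner membrane and the NDB proteins from its outer side, and the alternative oxidases pass them from ubiquinol to oxygen beside complexes III and IV. In Arabidopsis, AOX1A is a standard reporter of mitochondrial retrograde signalling: NAC transcription factors such as ANAC017 and ANAC013 activate it through the mitochondrial dysfunction motif, WRKY40 represses it through W-boxes, and ABI4 is a further repressor.

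The sequences in front of the genes are shown first because they differ in which of these elements they carry. The mitochondrial dysfunction motif was searched on both strands as CTTG, any 5 bases, and then CAAG or CACG. In the 1000 bases before the annotated gene start (TAIR10.1 genome, RefSeq annotation), 2 of 10 genes held it, NDA1 and NDB2, against 4.39% of 27443 protein-coding genes. With the first 100 bases of the gene added, a window chosen after the shorter one had been searched, AOX1A was the third of 10 genes, against 4.89% of all. A match is a description of letters, not of a bound site. The following stretches lie on the plus strand, which is the coding strand of these genes, with the motif in capitals. The first is chr1:2204010-2204069, the second chr4:2572324-2572383 and the third chr4:2571751-2571810, where the motif lies on the minus strand. The AOX1A sites are at chr3:7906518-7906530, across the annotated start, and chr3:7906545-7906557, in the 5′ untranslated part of the first exon.

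NDA1, motif at positions -70 to -58 from the start: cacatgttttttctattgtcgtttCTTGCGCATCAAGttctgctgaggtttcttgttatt

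NDB2, motif at positions -79 to -67: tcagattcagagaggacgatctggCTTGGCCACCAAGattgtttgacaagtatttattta

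NDB2, motif at positions -652 to -640: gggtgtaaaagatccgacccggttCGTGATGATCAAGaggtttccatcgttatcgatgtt

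AOX1A, first site: CTTGGCGACCACG

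AOX1A, second site: CTTGCTCTCCAAG

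The W-box was searched on both strands as TTGACC or TTGACT in the 250 bases before the start. It was present for 5 of 10 genes (AOX1A, AOX1D, AOX2, NDA2 and NDB4), against 28.4% of protein-coding genes. The AOX1A promoter held a pair of W-boxes, capitalised in chr3:7906371-7906520, plus strand. The element CACCG, described for ABI4 binding, was in none of the 10 windows of 250 bases, against 11.5% of all. No match says only that these letters are not in the window.

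AOX1A, the 150 bases before the start: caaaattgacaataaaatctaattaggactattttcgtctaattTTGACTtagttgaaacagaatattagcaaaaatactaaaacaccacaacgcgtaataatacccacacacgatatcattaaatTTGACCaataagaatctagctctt

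Library totals lay between 36043744 and 36477053 counts. Levels are given as CPM, the count of a gene relative to its library's total, scaled by TMM factors of 0.974 to 1.025, and "called" means an adjusted p under 0.05 in edgeR's quasi-likelihood test over all genes of 1 contrast. The targeted gene checked the labels: CLPP2 stood at 44.6 ± 1.83 CPM in wild-type libraries (SD, n = 3 here and below), 5.56 ± 0.616 in clpp2-1 and 4.60 ± 0.0708 in clpp2-2. It was 8.02-fold lower in clpp2-1 and 9.70-fold lower in clpp2-2 (edgeR adjusted p = 2.38e-06 and 1.33e-06). CLPP2 did not pass the threshold between the lines (log2 difference -0.27, edgeR adjusted p = 0.119). The lines differed in how much else was called: 0.177% of the genes tested in clpp2-1 and 10.1% in clpp2-2 against the wild type, 1.06% for the mean of both lines and 3.97% for clpp2-2 against clpp2-1. Over all genes tested, medians of the log2 fold change ran from -0.012 to -0.00080.

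Few differences of the bypass genes passed the test. Of the 9 genes tested, 0 were called in clpp2-1 and 1 in clpp2-2, where NDC1 rose 1.12-fold (5.50% of all genes rose there). None was called for the mean of the lines or between the lines. At an unadjusted p under 0.05 the counts were 0 of 9 in clpp2-1, 5 of 9 in clpp2-2, 4 of 9 for the mean and 4 of 9 between the lines, against 6.44, 29.5, 20.4 and 21.0% of all genes. Limma-voom called 0 of 9 in every contrast, where it called 0.143, 9.72, 0.956 and 4.02% of all genes in the same order. The DESeq2 Wald test called 0, 5, 0 and 2 of 9, where it called 0.453, 16.8, 5.93 and 8.75% of all genes. The median log2 fold change of the 9 genes was 0.07 in clpp2-1 and 0.16 in clpp2-2, beside medians of all genes of -0.00080 and -0.012.

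**Figure D1:**
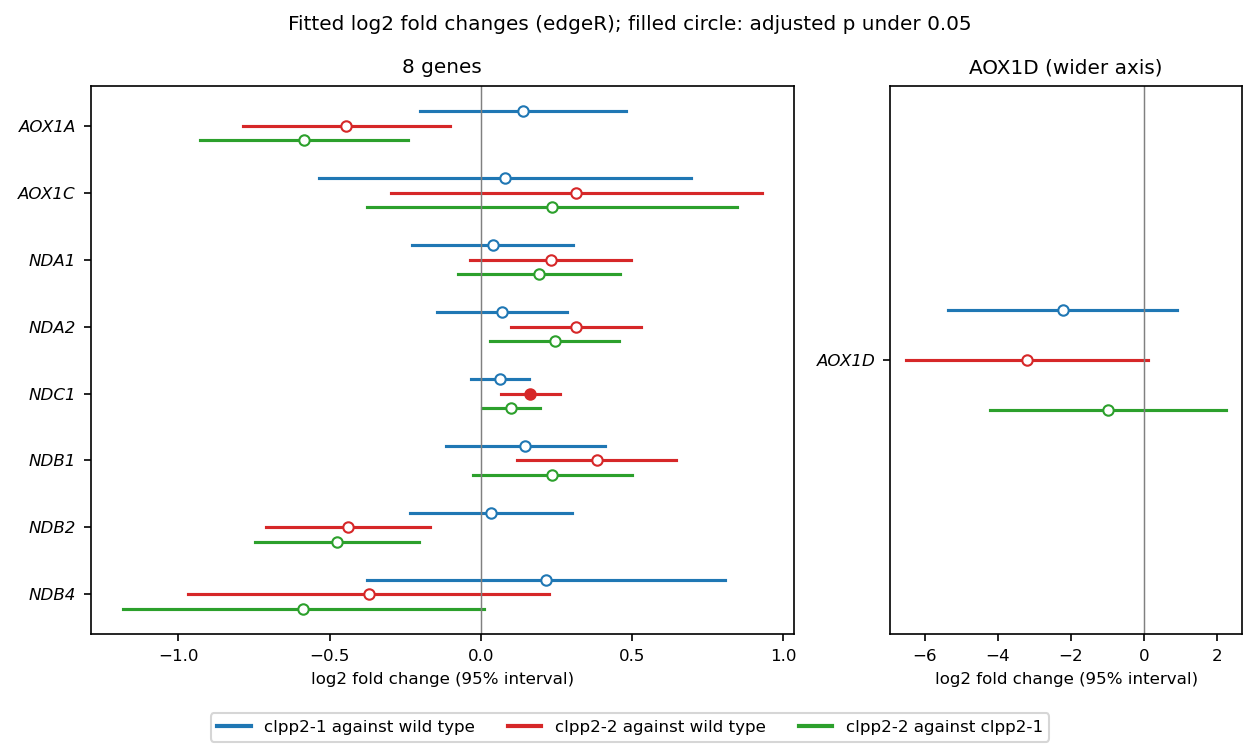
Fitted log2 fold changes of the 9 genes tested (x axis) for clpp2-1 and clpp2-2 against the wild type and for clpp2-2 against clpp2-1, with 95% intervals as lines and AOX1D on a wider axis. The only filled circle, at an adjusted p under 0.05, is NDC1 in clpp2-2 at 0.16, while AOX1A, NDB2 and NDB4 lie below 0 in clpp2-2.

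AOX1A (AT3G22370, chr3:7906521-7908746, 4 exons), the main stress-responsive isoform, was the most abundant member. Its level was 95.3, 129.9 and 147.8 CPM in the wild-type libraries, 127.8, 153.5 and 129.7 in clpp2-1, and 94.3, 83.5 and 96.4 in clpp2-2. The wild-type libraries spread widely, and the lowest, wt 1, sat among the clpp2-2 libraries, whereas all clpp2-2 libraries lay below all clpp2-1 libraries. The log2 fold change was 0.14 in clpp2-1 (95% interval -0.20 to 0.48, edgeR adjusted p = 0.844), so a rise of more than 1.39-fold lay outside the interval. In clpp2-2 it was -0.44 (SE 0.150, interval -0.79 to -0.10, edgeR adjusted p = 0.0921), and between the lines it was -0.58 (SE 0.150, edgeR adjusted p = 0.0705). Neither value passed the threshold. Without wt 1, AOX1A was called in clpp2-2 at a log2 fold change of -0.60 (edgeR adjusted p = 0.0266) and between the lines at -0.58 (edgeR adjusted p = 0.0227). That fit called 3.82 and 3.60% of all genes. As wt 1 was the lowest wild-type library for AOX1A, leaving it out makes the decrease against the wild type larger. With each library left out in turn, the values ran from -0.60 to -0.30 in clpp2-2 (edgeR adjusted p = 0.0266 to 0.271). Between the lines they ran from -0.63 to -0.49 (0.0227 to 0.230). Of 17 alternatives, 3 and 4 gave a call.

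Less abundant oxidases showed no call. AOX1C (AT3G27620, chr3:10229045-10230707) was near the bottom of the range in every library, at 1.52 ± 0.218 CPM in wild-type libraries, 1.61 ± 0.487 in clpp2-1 and 1.89 ± 0.295 in clpp2-2. The 3 groups overlapped. Its log2 fold changes of 0.08 and 0.32 did not pass the threshold (edgeR adjusted p = 0.958 and 0.473). AOX1C is also the member most open to reads from a relative, since 42 of its 1316 stretches of 31 bases occur in other genes, 38 of them in AOX1B.

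AOX1D (AT1G32350, chr1:11666886-11668690), an isoform known from senescing and stressed leaves, varied most between libraries of 1 genotype. The counts were 307, 44 and 369 in wild-type libraries, 0, 49 and 106 in clpp2-1, and 56, 21 and 0 in clpp2-2. A pair of wild-type libraries, wt 1 and wt 3, stood above the other 7, and wt 2 lay among the mutants. In CPM the means were 6.54 ± 4.66, 1.40 ± 1.44 and 0.710 ± 0.775. The log2 fold changes were -2.22 in clpp2-1 (interval -5.35 to 0.92, edgeR adjusted p = 0.780) and -3.19 in clpp2-2 (interval -6.51 to 0.12, edgeR adjusted p = 0.183), and the intervals reach from a large decrease to no change. The counts of 0 came from libraries with totals of 36333790 and 36363306.

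**Figure D2:**
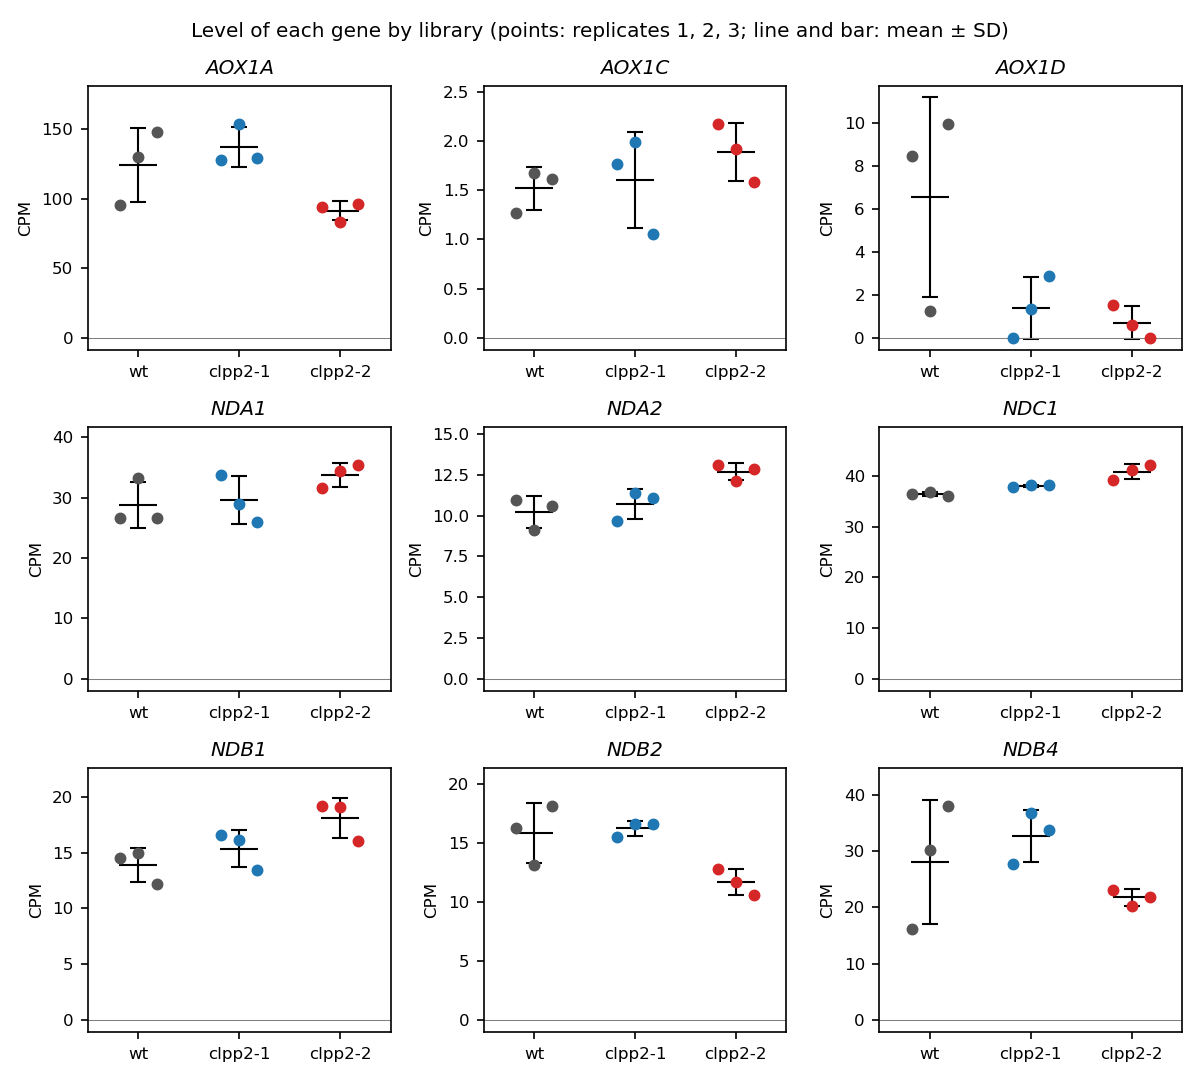
Levels in CPM (y axis, from 0, one scale per gene) in each library of the 9 genes, grouped by genotype, with points for replicates 1 to 3 and lines and bars for the mean ± SD. AOX1A in wt 1 (95.3 CPM) lies among the clpp2-2 libraries, the NDC1 means are 36.4, 38.1 and 40.8 CPM, and AOX1D is high only in wt 1 and wt 3.

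The internal dehydrogenases NDA1 and NDA2 oxidise matrix NADH. NDA1 (AT1G07180, chr1:2204104-2207099), a light-responsive gene, was measured at 26.6, 33.2 and 26.6 CPM in wild-type libraries, 33.7, 29.0 and 26.0 in clpp2-1 and 31.5, 34.4 and 35.3 in clpp2-2. Groups overlapped throughout, and the log2 fold changes of 0.04 and 0.23 did not pass the threshold (edgeR adjusted p = 0.952 and 0.228).

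NDA2 (AT2G29990, chr2:12793320-12796085) stood at 10.9, 9.08 and 10.6 CPM in wild-type libraries, 9.67, 11.4 and 11.1 in clpp2-1 and 13.1, 12.1 and 12.9 in clpp2-2. All clpp2-2 libraries lay above the other 6. The log2 fold change in clpp2-2 was 0.31 (SE 0.0939, interval 0.10 to 0.53), short of the threshold at an edgeR adjusted p of 0.0676, and that between the lines was 0.24 (edgeR adjusted p = 0.185). In clpp2-1 it was 0.07 (edgeR adjusted p = 0.882).

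Of the external dehydrogenases, none was called in any of the 4 edgeR contrasts. NDB1 (AT4G28220, chr4:13992210-13995831), the calcium-dependent NADPH dehydrogenase, was at 14.5, 15.0 and 12.2 CPM in wild-type libraries, 16.6, 16.1 and 13.4 in clpp2-1 and 19.1, 19.1 and 16.1 in clpp2-2. The clpp2-2 libraries lay above all wild-type libraries and overlapped clpp2-1. The log2 fold change was 0.15 in clpp2-1 (edgeR adjusted p = 0.802) and 0.38 in clpp2-2 (SE 0.115, interval 0.12 to 0.65, edgeR adjusted p = 0.0685). Without wt 2 the value in clpp2-2 was called (log2 0.45, edgeR adjusted p = 0.0452), in a fit that called 20.7% of all genes. As wt 2 was the highest wild-type library for NDB1, leaving it out makes the increase larger. With each library left out in turn, the edgeR adjusted p ran from 0.0452 to 0.186, and 3 of 17 alternatives gave a call. NDB1 overlaps AT4G28230 on the opposite strand and shares 23 of its 2741 stretches of 31 bases with it, and no source used here says whether counting used the strand.

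NDB2 (AT4G05020, chr4:2572427-2576599), the major external NADH dehydrogenase and a gene often co-induced with AOX1A in Arabidopsis, had levels of 16.3, 13.1 and 18.1 CPM in wild-type libraries, 15.5, 16.5 and 16.6 in clpp2-1 and 12.7, 11.7 and 10.6 in clpp2-2. Every clpp2-2 library lay below the other 6. The log2 fold change was -0.44 in clpp2-2 (SE 0.119, interval -0.71 to -0.17, edgeR adjusted p = 0.0514) and -0.47 between the lines (SE 0.119, edgeR adjusted p = 0.0653), both just short of a call. Without wt 2 both were called, at -0.56 (edgeR adjusted p = 0.00850) and -0.47 (0.0220), and without wt 3 the second was (0.0477). Leaving out wt 2 called 20.7 and 7.12% of all genes in these contrasts. As wt 2 was the lowest wild-type library for NDB2, leaving it out makes the decrease against the wild type larger. With each library left out in turn, the edgeR adjusted p ran from 0.00850 to 0.162 and from 0.0220 to 0.218. Of 17 alternatives, 2 and 4 gave a call. In clpp2-1 it was 0.03 (interval -0.23 to 0.30, edgeR adjusted p = 0.959).

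NDB4 (AT2G20800, chr2:8953057-8955831), a second external NADH dehydrogenase, ranged over 16.2, 30.3 and 38.0 CPM in the wild type alone. The other values were 27.7, 36.7 and 33.7 in clpp2-1 and 23.2, 20.2 and 21.9 in clpp2-2. As for AOX1A, wt 1 was the lowest wild-type library, and all clpp2-2 libraries lay below all clpp2-1 libraries. Log2 fold changes were 0.22 in clpp2-1, -0.37 in clpp2-2 and -0.59 between the lines (edgeR adjusted p = 0.861, 0.380 and 0.244). Without wt 1 and clpp2-1 1, the last pair were called, at -0.64 and -0.69 (edgeR adjusted p = 0.0359 and 0.0425). Both libraries left out were the lowest of their genotypes for NDB4, so leaving them out makes the decrease larger. Of 17 alternatives, 1 and 2 gave a call. With 1 library left out, the edgeR adjusted p ran from 0.0515 to 0.866 and from 0.0522 to 0.469.

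NDC1 (AT5G08740, chr5:2848352-2851534) is found in mitochondria and in plastids, where it acts at plastoglobules on plastoquinone and in vitamin K synthesis. It was the least variable member, at 36.4, 36.9 and 36.0 CPM in wild-type libraries, 37.8, 38.1 and 38.2 in clpp2-1 and 39.1, 41.2 and 42.1 in clpp2-2. The 3 genotypes did not overlap, and all 6 mutant libraries lay above the wild type. NDC1 rose in clpp2-2 by 0.16 on the log2 scale (SE 0.0425, interval 0.07 to 0.26, edgeR adjusted p = 0.0461). The change in clpp2-1 was 0.06 (edgeR adjusted p = 0.788), and that between the lines 0.10 (edgeR adjusted p = 0.223). The call was lost in 12 of 17 alternatives, with an edgeR adjusted p of 0.0353 to 0.135 when libraries were left out in turn.

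Counted over the genes tested, libraries of the groups did not overlap for 1 of 9 in clpp2-1 (NDC1 higher), against 9.61% of all genes in either direction and 5.17% higher. In clpp2-2 there were 4 of 9, with NDA2, NDB1 and NDC1 higher and NDB2 lower, against 33.8% (17.0% higher and 16.7% lower). Between the lines there were 5 of 9, with NDA2 and NDC1 higher and AOX1A, NDB2 and NDB4 lower in clpp2-2, against 31.4% (15.7% higher and 15.8% lower). For the mean of both lines, 1 of 9 (NDC1) had all mutant libraries on 1 side, against 4.60% in either direction and 2.47% higher.

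Levels of different genes can be compared only per length, as CPM per kb of exon. Over the 9 libraries AOX1A was first at 66.7 ± 14.5 CPM per kb, followed by NDC1 (17.7 ± 0.955), NDA1 (14.2 ± 1.72), NDB4 (13.3 ± 3.70), NDA2 (5.77 ± 0.692), NDB1 (5.69 ± 0.844), NDB2 (5.69 ± 1.01), AOX1D (1.89 ± 2.43) and AOX1C (1.24 ± 0.259). In that order, the libraries of neighbours did not overlap between AOX1A and NDC1, between NDC1 and NDA1, and between NDB4 and NDA2. All other neighbours overlapped.

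The oxidase total was mostly AOX1A. Summed over the 3 oxidases measured, it was 75.9 ± 15.5 CPM per kb in wild-type libraries (60.5 to 91.5), 79.8 ± 8.41 in clpp2-1 (73.8 to 89.4) and 53.7 ± 3.94 in clpp2-2 (49.1 to 56.1). AOX1A made up 92.7 ± 4.13, 97.4 ± 0.863 and 96.5 ± 1.3% of it. The clpp2-2 sums were below those of the other 6 libraries. For AOX1A alone, wt 1 (54.0 CPM per kb) lay among the clpp2-2 libraries (47.3 to 54.6). The sum of wt 1 stood above theirs only with its AOX1D, at 5.55 CPM per kb, and the sums were not tested. Those of the 6 dehydrogenases overlapped, at 60.0 ± 5.31, 64.3 ± 2.14 and 62.5 ± 0.270 CPM per kb.

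**Figure D3:**
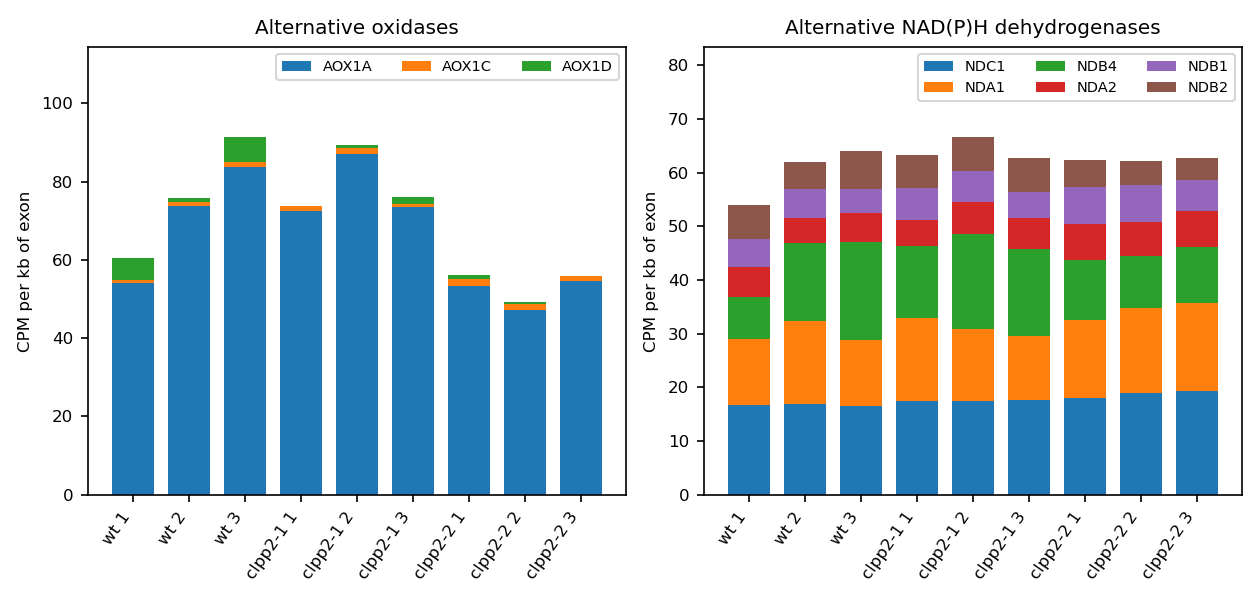
Stacked CPM per kb of exon in each library for the 3 oxidases measured (left) and the 6 dehydrogenases (right), with bars from 0 on separate scales. AOX1A fills nearly all of each oxidase bar, the 3 clpp2-2 bars (49.1 to 56.1) are the shortest oxidase bars, and the dehydrogenase bars end between 54.0 and 66.8.

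Within the dehydrogenase sum, each gene's share was compared between the wild type and clpp2-2. NDB2 took 10.3 ± 1.85% in the wild type and 7.29 ± 0.707% in clpp2-2, and NDB4 took 22.2 ± 7.16 and 16.8 ± 1.14%. NDB1 went from 8.41 ± 1.43 to 10.4 ± 1.06%, NDA2 from 8.83 ± 1.46 to 10.5 ± 0.403%, NDA1 from 22.2 ± 2.80 to 24.9 ± 1.39% and NDC1 from 28.1 ± 2.63 to 30.1 ± 1.04%. These shares are descriptions, and those of 1 library sum to a fixed total.

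The 3 genes closest in pattern to AOX1A over the 9 libraries, by the root mean square difference of z-scored log2 CPM, were ChlAKR (AT2G37770, 0.186), an aldo-keto reductase, PTF1 (AT3G02150, 0.194), a plastid transcription factor, and AT2G18193 (0.199), annotated as a nucleoside triphosphate hydrolase. NDB4 ranked 108 by the same measure (0.420) and NDB2 ranked 1294 (0.765) among the other genes tested. For NDB2 the nearest were CPK1 (0.209), NTM1 (0.215) and GONST3 (0.222). For NDA1 they were SSL4 (0.259), RbcX1 (0.269) and AT4G00895 (0.284), for NDA2 POLA3 (0.279), AT2G44000 (0.282) and AT2G20360 (0.295), and for NDC1 APG10 (0.232), LBD26 (0.264) and AT5G24060 (0.275). The measure describes likeness over 9 libraries that share genotypes, and was not tested.

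Other genes of the pathway were read from 9 lists with 79 genes in all, of which 77 were tested. In clpp2-1, 0 of 77 were called by edgeR, and 3 had an unadjusted p under 0.05, as 6.44% of all genes did. In clpp2-2, 5 were higher and 1 was lower, where 5.50 and 4.57% of all genes were. Between the lines 2 were higher and 2 lower in clpp2-2, where 2.34 and 1.63% of all genes were. For the mean of both lines there were 0, and 12 of 77 at an unadjusted p under 0.05, as 20.4% of all genes were. Among close relatives, AOX1B had 1 to 8 counts per library and was not tested. NDB3 had 0 to 19 counts and was tested. Its log2 fold changes of 1.48 in clpp2-1 and 0.99 in clpp2-2 rest on these low counts and were not called. PTOX, the plastid terminal oxidase, was at 88.2 ± 6.73 CPM in wild-type, 93.9 ± 4.24 in clpp2-1 and 101.0 ± 5.88 in clpp2-2 libraries, with a log2 fold change of 0.19 in clpp2-2 that did not pass (edgeR adjusted p = 0.101).

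The largest called differences in these lists were in genes listed as regulators of AOX1A, a list chosen with earlier results of these data known. Whether they bear on the level of AOX1A, itself not called, was not tested. WRKY40 was at 6.54, 4.99 and 3.82 CPM in wild-type libraries, 6.78, 4.77 and 4.72 in clpp2-1 and 15.6, 14.4 and 20.3 in clpp2-2. It rose 3.28-fold in clpp2-2 (log2 1.71, SE 0.229, edgeR adjusted p = 0.00497) and was 3.09-fold higher in clpp2-2 than in clpp2-1 (edgeR adjusted p = 0.00963). The clpp2-2 libraries all lay above the other 6, and the change against the wild type was called in all 17 alternatives. The difference between the lines was lost without clpp2-1 3 (edgeR adjusted p = 0.0511).

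ABI4 had 0.883, 1.81 and 0.350 CPM in wild-type libraries, 1.12, 0.845 and 1.79 in clpp2-1 and 8.48, 7.01 and 6.83 in clpp2-2. It rose 7.33-fold in clpp2-2 (log2 2.87, SE 0.513, edgeR adjusted p = 0.0150) and was 5.93-fold higher than in clpp2-1 (edgeR adjusted p = 0.0313). The first call was lost without wt 1 (edgeR adjusted p = 0.0566) and without clpp2-2 2 (0.0514), as well as without wt 1 and clpp2-1 1 together (0.0795), and the second without any single mutant library (0.0715 to 0.107) and without both of those libraries (0.133). The other 11 of 13 regulators, ANAC017 and ANAC013 among them, were called in no contrast.

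Genes for targets of the same signalling route gave no call. Of 12 other mitochondrial dysfunction genes, edgeR called 0 in any contrast, with 0 at an unadjusted p under 0.05 in clpp2-1, 2 in clpp2-2, 0 for the mean and 7 between the lines, beside 6.44, 29.5, 20.4 and 21.0% of all genes. Their median log2 fold change was 0.13 in clpp2-1, -0.17 in clpp2-2 and -0.30 between the lines. Between the lines, 6 of 12 lay lower in clpp2-2 without overlap, against 15.8% of all genes that were lower in that way. UGT74E2, a glycosyltransferase gene of this list, was at 67.7 ± 20.5, 65.6 ± 3.78 and 41.2 ± 4.94 CPM, with a log2 fold change of -0.71 in clpp2-2 (edgeR adjusted p = 0.0609).

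Library wt 1 was the lowest wild-type library for 11 of 12 of these genes and the lowest of all 9 for 7 of 12. For 9 plastoglobule and plastid quinone genes, described below, these counts were 6 and 5, and for the 9 bypass genes tested 3 and 1. The share over all genes was not counted, so a low wt 1 is not shown to be particular to this list. Leaving out wt 1, an alternative added after seeing the data, gave 3 calls in clpp2-2 (DTX1, DTX3 and UGT74E2, all lower). It gave 5 between the lines (with GSTU25 and SOT12), and UGT74E2 was then also called for the mean of both lines. Of all genes, that fit called 3.82% in clpp2-2, 3.60% between the lines and 0.375% for the mean. Without wt 1 and clpp2-1 1 the counts were 3 and 4, beside 3.56 and 1.64% of all genes. For a gene lowest in the library left out, the decrease in clpp2-2 against that genotype becomes larger by that choice. The spread shared by all contrasts changes as well, so these calls are no separate support for a decrease. The summed level of 8 seed storage genes, listed as markers of seed tissue, was also uneven: 107.0, 23.3 and 0.350 CPM in wild-type libraries, 12.9, 2.67 and 0.896 in clpp2-1, and 0.631, 1.10 and 1.02 in clpp2-2. Its part in the values of AOX1A, NDB4 and the 12 genes was not tested, and in whole seedlings fewer cells of a type and less RNA per cell cannot be told apart.

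**Figure D4:**
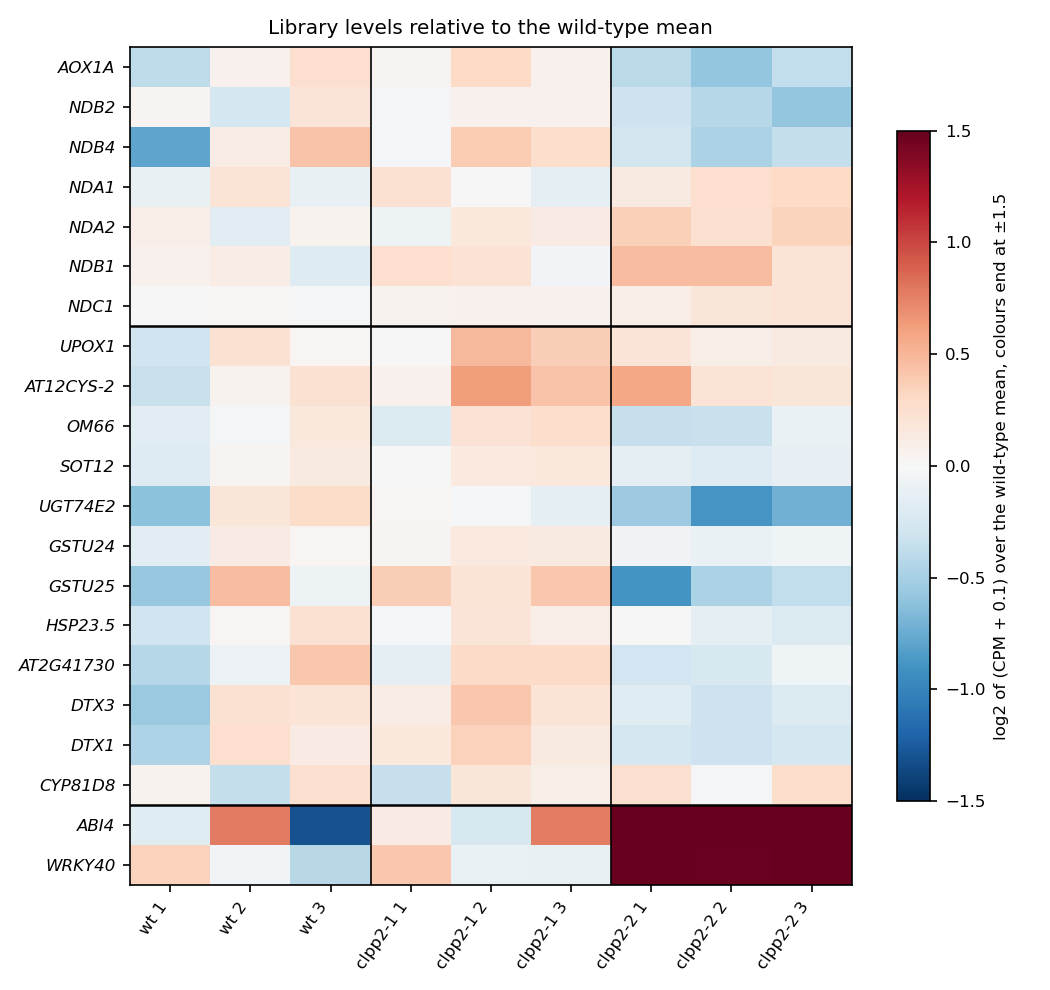
Levels in each library (columns) as log2 of CPM plus 0.1 over the wild-type mean, for 7 of the 9 genes tested, 12 other mitochondrial dysfunction genes, and ABI4 and WRKY40, with colours ending at ±1.5. The wt 1 column is lower than the other wild-type columns for AOX1A, NDB4 and 11 of the 12 dysfunction genes, and the clpp2-2 columns are high for ABI4 and WRKY40.

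Among genes that share the ubiquinone pool, PRODH1, the proline dehydrogenase, fell in clpp2-2 from 124.7 ± 17.9 to 88.5 ± 3.37 CPM, with 118.2 ± 2.75 in clpp2-1. The log2 fold change was -0.50 against the wild type (SE 0.0902, edgeR adjusted p = 0.0160) and -0.42 against clpp2-1 (edgeR adjusted p = 0.0420). PRODH1 was the only gene called among 10 listed for other ubiquinone-reducing dehydrogenases or for proteins that pass electrons to them. Its call was lost against the wild type without clpp2-2 2 or 3 (edgeR adjusted p = 0.0760 and 0.0652). Against clpp2-1 it was lost without wt 1 or any 1 mutant library (0.0513 to 0.169).

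UCP1, an uncoupling protein and carrier of the inner membrane, rose in clpp2-2 from 121.2 ± 5.0 to 139.1 ± 4.45 CPM (log2 0.20, edgeR adjusted p = 0.0316). The dicarboxylate carrier DIC2 rose from 6.41 ± 0.401 to 9.45 ± 1.67 CPM (log2 0.56, edgeR adjusted p = 0.0382), and the other 4 of 6 genes of this list were not called. CI51, the NADH-binding subunit of complex I, rose from 279.1 ± 18.4 to 323.2 ± 9.90 CPM (log2 0.21, edgeR adjusted p = 0.0450) as 1 of 12 genes of the complex I NADH module and the cytochrome route. Each of these calls was lost on leaving out wt 1 (edgeR adjusted p = 0.0806 for UCP1, 0.0996 for DIC2 and 0.0754 for CI51), wt 3, and several mutant libraries (0.0541 to 0.120 over all such losses). With only the groups compared, all 3 were lost too (edgeR adjusted p = 0.0657 for UCP1, 0.0699 for DIC2 and 0.0903 for CI51).

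In clpp2-2, ubiquinone synthesis had 0 of 7 calls by edgeR and 1 unadjusted p under 0.05 (29.5% of all genes), with COQ3 at a log2 fold change of 0.12 in clpp2-2 (edgeR adjusted p = 0.296). The thioredoxins of AOX and the malate-linked sources of NADH had 0 of 6 and also 1, with MMDH1, a mitochondrial malate dehydrogenase, at 0.22 in clpp2-2 (edgeR adjusted p = 0.0530). Of 9 plastoglobule and plastid quinone genes, listed for NDC1, PES2, a phytyl ester synthase, was lower in clpp2-2 than in clpp2-1 (22.8 ± 0.262 against 34.9 ± 3.23 CPM, log2 -0.61, edgeR adjusted p = 0.0280). That call was lost without clpp2-1 2 or 3 or any 1 clpp2-2 library (0.0817 to 0.111). Summed leaf markers ran from 13374 to 20425 CPM in wild-type libraries, 15665 to 16797 in clpp2-1 and 18711 to 24782 in clpp2-2. LHCB1.3 and RBCS1A made up most of each sum, and none of the 3 markers was called in any contrast. In clpp2-2 the log2 fold changes were 0.48 for LHCB1.3, 0.46 for RBCS1A and 0.13 for LHCB2.1 (edgeR adjusted p = 0.0987, 0.0834 and 0.583). The part of these markers in NDC1, NDA1 and PTOX was not tested.

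**Figure D5:**
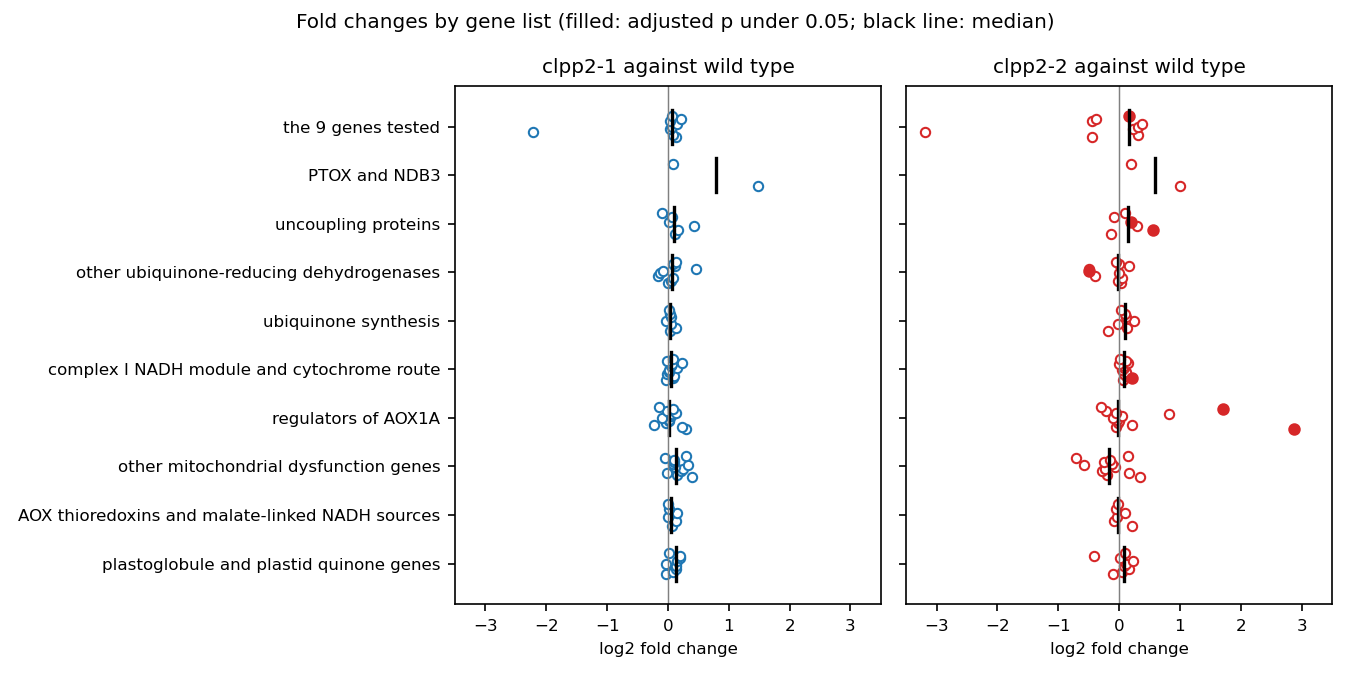
Log2 fold change (x axis) of each gene tested in the 9 genes of the bypass and the 9 lists of related genes, for clpp2-1 (left) and clpp2-2 (right) against the wild type, with medians as black lines and calls filled. No point is filled for clpp2-1, and the filled points for clpp2-2 are NDC1, UCP1, DIC2, PRODH1, CI51, WRKY40 and ABI4, the last at 2.87.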

How the data were processed

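As deposited by the authors, the table held expected counts, that is estimated read counts per gene. They were rounded to whole numbers before use, with a smallest row sum of 10. The submitters' processing notes list Salmon 0.14.0, FastQC, DESeq2, DESeq and TAIR10 without their roles. Close library totals make scaling before deposition possible. Every pair of libraries of a genotype differed beyond counting error (6.15 to 32.5 chi-square per gene).

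Counts were tested with edgeR 4.0.16 (R 4.3.3): filterByExpr, TMM, 1 quasi-likelihood fit of 9 libraries and 4 contrasts, with Benjamini-Hochberg adjustment over 20294 genes. Standard errors are the log2 fold change over the root of F. The code was tested on simulated data. Alternatives were DESeq2 1.42.0 size factors and Wald test, limma-voom (limma 3.58.1), no filter, the replicate number as a block, only the groups compared, library sizes without organelle genes, and libraries left out, with wt 1 and clpp2-1 1 also together.

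Exon lengths, positions and sequences came from TAIR10.1, read with Python 3.11.15. The members and lists were chosen with earlier results of these data known. Named genes are all members, CLPP2, up to 3 called genes per list, taken by adjusted p in the contrast of both lines' mean (with no call, the 1 lowest), and the 3 genes nearest in pattern to AOX1A, NDA1, NDA2, NDB2 and NDC1. Genes named for calls gained without wt 1 were chosen after their values were seen.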

Additional observations from a re-analysis of the deposited data

Results flagged for a closer look

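In 5 genes outside the bypass itself, the 2 lines differed by a test of the difference between them (clpp2-2 against clpp2-1, edgeR adjusted p under 0.05). They came from the 77 list genes tested and the tissue markers, and 3.97% of all genes were called in this contrast. WRKY40 was higher in clpp2-2 by 1.63 on the log2 scale (edgeR adjusted p = 0.00963), and ABI4 was higher by 2.57 (edgeR adjusted p = 0.0313). PRODH1 had a log2 difference of -0.42 (edgeR adjusted p = 0.0420) and PES2 one of -0.61 (edgeR adjusted p = 0.0280). As given above, each of these 4 calls was lost on leaving out at least 1 library, and those of ABI4 and PRODH1 without any single mutant library. SEP3, a floral MADS-box gene among the tissue markers, had a log2 difference of -1.24 (edgeR adjusted p = 0.00293). Wild-type libraries had 9.33 ± 0.970 CPM of SEP3 and clpp2-2 libraries 3.41 ± 0.0400 (SD, n = 3 libraries, edgeR adjusted p = 0.00102). None of the 9 bypass genes tested differed between the lines by that test. At an unadjusted p under 0.05 there were 4, and the DESeq2 Wald test gave 2.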

How the results depend on the processing

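No member was called in clpp2-1 under any alternative run. In clpp2-2 the count of 1 became 5 with the DESeq2 Wald test (AOX1A, NDA2, NDB1, NDB2 and NDC1; 16.8% of all genes called), 0 with limma-voom (9.72%), 0 with only the groups compared (6.10%), and 2 without wt 1 and clpp2-1 1 (AOX1A and NDB4; 3.56%). With 1 library left out it ran from 0 to 3, the 3 coming without wt 2, where 20.7% of all genes were called. Between the lines the count of 0 became 2 with the DESeq2 Wald test (8.75% of all genes), 3 with only the groups compared (7.50%) and 2 without wt 1 and clpp2-1 1 (1.64%), and 0 to 1 with 1 library left out, which was also the range for the mean of both lines. The replicate number as a block gave 1 call in clpp2-2 (8.15% of all genes), NDB1 in place of NDC1 (edgeR adjusted p = 0.0695 for NDC1). Under the block DIC2 and CI51 lost their calls in clpp2-2 (0.0561 and 0.0618), and ABI4 and PRODH1 theirs between the lines (0.0768 and 0.0694). Deviations of log2 CPM from the genotype mean were correlated between libraries of different genotypes across 14263 genes. The correlations ran from -0.154 to 0.117 for libraries with the same number and from -0.177 to 0.154 for those with different numbers. The numbers are thus not shown to pair libraries.

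Signs that turned belonged to values short of the threshold, and the cause was not tested. With 1 library left out, log2 fold changes in clpp2-1 ran from -0.017 to 0.28 for AOX1A, -0.10 to 0.31 for AOX1C, -0.064 to 0.15 for NDA1, -0.013 to 0.14 for NDA2, -0.090 to 0.14 for NDB2 and -0.059 to 0.49 for NDB4. NDB4 ran from -0.35 to 0.20 for the mean of both lines, and AOX1D from -2.22 to 0.093 between the lines. Without wt 1 and clpp2-1 1, AOX1C was at -0.10 and NDA1 at -0.12 in clpp2-1, and limma-voom gave 0.0016 for NDB4 for the mean. AOX1C and AOX1D had the fewest counts, which limits their precision most.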
